A study of Homo sapiens with 12 samples.

Results

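The comparison set PC9 cells labelled oeAGR2, for AGR2 overexpression, after 72 h of gefitinib, against PC9 control cells after 24 h. Its members were chosen by label: the 3 libraries of oeAGR2 cells at 72 h and the 3 libraries of control cells at 24 h, 6 of the 12 libraries in the series. PC9 is an established human lung adenocarcinoma line whose EGFR carries an activating mutation, and gefitinib inhibits the EGFR kinase; every library came from cells given 300 nM gefitinib. The 3 groups used here were oeAGR2 cells at 72 h, control cells at 72 h and control cells at 24 h, each with 3 replicates; 3 AGR2-knockdown libraries at 24 h were outside the fit. The sources used here do not give the vector behind the overexpression, what the controls carried at each time, or whether a line was a clone or a pool. The question was whether cells labelled as overexpressing AGR2 kept at 72 h the state of the 24 h control or held another one. Time and construct differ together between these groups and cannot be told apart; 72 h control values stand beside the results for that reason. AGR2 RNA itself was lower in the oeAGR2-labelled cells than in the 24 h controls and slightly above the 72 h controls, so the label is used as a name only.

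AGR2 is a protein disulfide isomerase of the endoplasmic reticulum. It is needed for the folding of mucins in secretory epithelia, is part of the luminal programme of several adenocarcinomas, and is also secreted. Cells that survive an EGFR inhibitor over days usually divide slowly and change their differentiation genes, so genes of the cell cycle, epithelial differentiation, interferon response and growth factor signalling are described in turn.

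Values are TPM, a length-normalised share of a library's transcripts, as the authors deposited them; the depth of a library cannot be read from them. The oeAGR2-labelled libraries had 43.5% ± 5.39 of their TPM in mitochondrially encoded genes, against 42.1% ± 0.902 at 72 h and 44.97% ± 2.11 at 24 h in controls (mean ± SD, n = 3 each). oeAGR2-labelled replicate 1 stood apart from the other two, with 37.3% mitochondrial TPM against 47.4% and 45.8%. The median tested gene stood at 5.67 ± 0.125 TPM in oeAGR2-labelled cells, 5.33 ± 0.0473 TPM in 72 h controls and 3.88 ± 0.168 TPM in 24 h controls. All 7 epithelial markers, among them CDH1, EPCAM and KRT8, reached 1 TPM. Of 21 markers of blood, vessel and stromal cells, 4 reached 1 TPM in any library (CD68, COL1A1, CD14 and LYZ); the list summed to 69.6 to 79.4 TPM in oeAGR2-labelled cells, 120 to 122 TPM in 72 h controls and 55.4 to 67.8 TPM in 24 h controls, most of it CD68. PTPRC, which defines leukocytes, reached at most 0.0213 TPM, and PDGFRB, a pericyte gene, at most 0.157 TPM. In bulk RNA, fewer cells of a type and less RNA per cell cannot be told apart.

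AGR2 itself (ENSG00000106541, chr7:16791811-16833433, minus strand) was measured first. It stood at 12.1, 10.7 and 10.7 TPM in the oeAGR2-labelled libraries, against 8.67, 7.82 and 7.84 TPM in 72 h controls and 32.9, 31.2 and 31.7 TPM in 24 h controls. The oeAGR2-labelled libraries lay above every 72 h control and below every 24 h control. Against the 24 h controls the difference on the log2(TPM + 1) scale was -1.44 ± 0.07 (± SE here and below; limma, adjusted p = 1.35e-06), and against the 72 h controls it was 0.42 (adjusted p = 0.00102). AGR2 RNA in the cells labelled as overexpressing was 2.86-fold lower than in 24 h controls. The 72 h controls were lower than the 24 h controls by 3.94-fold. A gene on the opposite strand overlaps AGR2 in the deposited annotation, and the sources used here do not say whether strand was used in counting.

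Of 14019 genes tested, 8260 (58.9%) were higher and 1510 (10.8%) lower in oeAGR2 72 h cells than in 24 h controls (limma, adjusted p below 0.05). The difference of the median gene was 0.41 (log2), so counts of genes higher and lower are also given after every library was rescaled to the median gene: 4246 genes (30.3%) were then higher and 4077 (29.1%) lower. Both scalings called 5756 genes in the same direction, and 352 genes were called in opposite directions. As deposited, 1991 genes (14.2%) rose at least 2-fold and 325 (2.32%) fell at least 2-fold. The filter admits genes that reached 1 TPM in the libraries of either group alone, and the difference of such a gene follows in part from that choice. With 1 TPM required in all 6 compared libraries, which tests fewer genes, 6487 were higher and 1220 lower. By 2-fold or more, 1390 of these rose and 219 fell. The 72 h controls, set against the 24 h controls, had 7231 genes higher (51.6%) and 1110 lower (7.92%), with a median of 0.30; rescaled, 3649 (26%) were higher and 3557 (25.4%) lower. Against 72 h controls, oeAGR2-labelled cells had 4430 genes higher (31.6%) and 3161 lower (22.5%), with a median of 0.06; rescaled, 3810 (27.2%) were higher and 3881 (27.7%) lower. These comparisons share libraries. The p-values measure the spread between libraries, which the labels do not say came from separate cultures, and a permutation of 3 against 3 libraries could not go below p = 0.1 for a single gene.

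By library profile the replicates of oeAGR2-labelled cells differed. Across tested genes, replicate 1, the library that stood apart, had Pearson's r of 0.929 to 0.930 with 72 h controls and 0.942 to 0.948 with 24 h controls. Replicate 2 had 0.934 to 0.936 with 72 h controls and 0.909 to 0.926 with 24 h controls, and replicate 3 had 0.937 to 0.938 and 0.9205 to 0.936 with the same groups. Replicates 2 and 3 were thus nearer the 72 h controls, and replicate 1 nearer the 24 h controls. The 72 h and 24 h controls had 0.943 to 0.962 with each other. Within a group it was 0.971 or more. These are correlations across genes, which are not independent. In 4497 genes (32.1%) all oeAGR2-labelled libraries lay above the 6 control libraries, and in 1083 (7.73%) below them; rescaled, the counts were 2870 (20.5%) and 2615 (18.7%). The 95% interval of the difference from 24 h controls lay inside 1.5-fold either way for 4399 genes (31.4%), for 6116 (43.6%) rescaled, and for 2632 (18.8%) under both scalings.

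Some genes in oeAGR2-labelled cells at 72 h had a deposited level within 1.5-fold of the 24 h control while the 72 h control differed. They were picked for that pattern on deposited values, so the values are a description without a test. Of the 16 genes named, 6 still passed as different from 24 h controls as deposited (MCAM, CSF1 and VGLL1 higher, TRIB1, FOSL1 and CHST3 lower). CHST3 (limma adjusted p = 0.0362) missed the threshold in 8 of 27 alternative fits, among them each that left out a 72 h control library. After rescaling 11 of the 16 passed, all of them as lower, VGLL1 included (-0.16, limma adjusted p = 0.0441). An interval inside 1.5-fold after rescaling as well was left for 7. Rescaled, TRIB1 (-0.84), FOSL1 (-0.75), CHST3 (-0.71), FLNC (-0.62) and MALSU1 (-0.61) lay more than 1.5-fold lower than the 24 h controls on the log2 scale. The stress-induced glycoprotein hormone STC2 stood at 6.799, 8.56 and 8.26 TPM in oeAGR2-labelled cells, 32.7, 29.3 and 30.4 TPM in 72 h controls and 6.12, 6.43 and 7.11 TPM in 24 h controls. MCAM, a cell adhesion molecule, stood at 26.8, 33.5 and 30.02 TPM, against 104, 100.3 and 104 TPM in 72 h controls and 22.7, 23.4 and 25.4 TPM in 24 h controls. FLNC, an actin cross-linker, had 11.1, 17.2 and 14.9 TPM in oeAGR2-labelled cells, 59.4, 61.9 and 62.3 TPM in 72 h controls and 14.4, 14.7 and 18.2 TPM in 24 h controls. In each of these the 72 h control libraries lay far above all others, and oeAGR2-labelled and 24 h control libraries were much nearer each other. The other 5 with a higher 72 h control were TRIB1, ADAMTS12, FOSL1, CHST3 and CSF1. TRIB1, a pseudokinase that scaffolds protein degradation, averaged 27.7 ± 1.896 TPM in oeAGR2-labelled cells, 119 ± 1.66 TPM in 72 h controls and 35.2 ± 3.401 TPM in 24 h controls (SD, n = 3 each). FOSL1, the AP-1 subunit also called FRA1, averaged 6.94 ± 0.4497 TPM in oeAGR2-labelled cells, 30.2 ± 1.42 TPM in 72 h controls and 8.704 ± 0.799 TPM in 24 h controls. Of the 4399 genes held as deposited, 1896 (13.5% of tested genes) had all 72 h control libraries above the other 6. Of the 2632 held under both scalings, 835 (5.96% of tested genes) did so under both. Over all 14019 tested genes, held or not, the 72 h control libraries lay above the other 6 in 3210 (22.9%) and under them in 833 (5.94%).

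The opposite pattern, held genes with the 72 h controls below the other 6 libraries, was seen in 341 of the 4399 held as deposited (2.43% of tested genes). Under both scalings it was seen in 177 of the 2632 held (1.26% of tested genes). The fast skeletal troponin TNNI2 had 23.5, 19.3 and 20.1 TPM in oeAGR2-labelled cells, 4.86, 3.97 and 3.57 TPM in 72 h controls and 20.6, 15.5 and 16.1 TPM in 24 h controls. VGLL1, a TEAD cofactor, had 47.9, 46.2 and 49.03 TPM, against 19.2, 19.8 and 20.2 TPM in 72 h controls and 37.5, 36.4 and 37.7 TPM in 24 h controls. RN7SL2, a copy of the signal recognition particle RNA whose near-identical copies make its level uncertain, had 526, 445 and 467 TPM in oeAGR2-labelled cells, 153, 136 and 140.3 TPM in 72 h controls and 458, 515 and 396 TPM in 24 h controls. In these genes the 72 h controls were the low group. MALSU1, SETD6, UPK3BL1, HNRNPA1P33 and CORO6 completed the 8; their 72 h control means were between 0.49 and 0.586 times the 24 h control mean. With replicate numbers as a block, the small deposited rises of TNNI2 (limma adjusted p = 0.00806) and SETD6 (limma adjusted p = 0.00973) over 24 h controls passed the test. In a block fit over the 6 compared libraries alone, added after seeing the data, STC2 (limma adjusted p = 0.0427) and UPK3BL1 (limma adjusted p = 0.0484) passed as well.

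**Figure D1:**
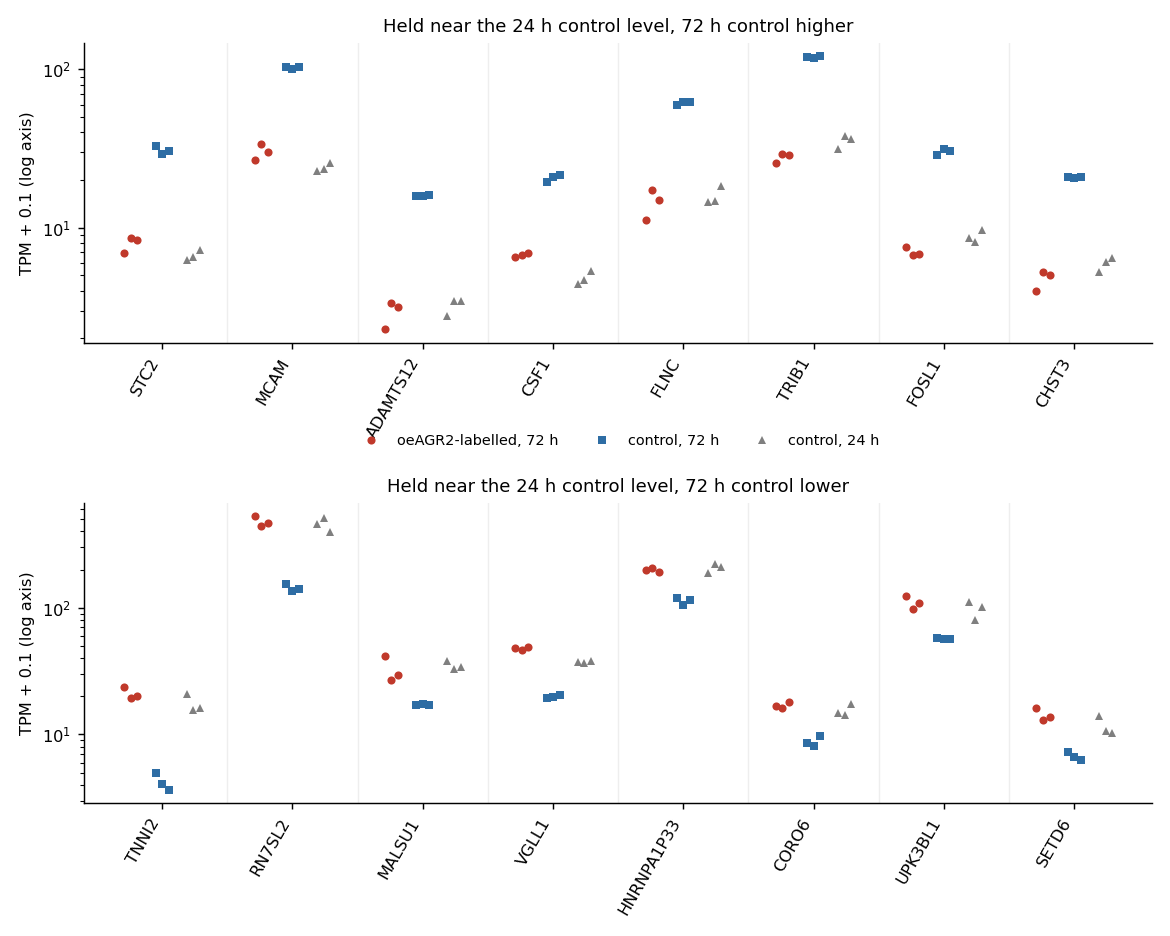
TPM of 16 genes whose deposited level was held within 1.5-fold of the 24 h control in oeAGR2-labelled cells, on a log axis after adding 0.1; each point is a library (circles oeAGR2-labelled 72 h, squares control 72 h, triangles control 24 h). Squares are the highest points for the 8 genes that include STC2 and MCAM, and the lowest points for the 8 that include TNNI2 and VGLL1.

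The 12 largest rises over 24 h controls included a mucosal keratin, a retinoid-induced gene, a pair of AP-1 genes and an interferon-induced gene; coordinates are those of the deposited hg38 table. KRT4, the keratin of non-cornified mucosa (ENSG00000170477, chr12:52806549-52814116, minus strand), stood at 164, 159.96 and 157 TPM in oeAGR2-labelled cells, against 22.5, 19.5 and 19.3 TPM in 72 h controls and 1.84, 1.66 and 1.73 TPM in 24 h controls. The log2 difference from 24 h controls was 5.88 ± 0.07 (limma, adjusted p = 1.97e-09), a 92.05-fold ratio of mean TPM, and the groups did not overlap. RARRES1, a retinoid-induced gene (ENSG00000118849, chr3:158696892-158732489, minus strand), had 49.6, 51.9 and 50.04 TPM in oeAGR2-labelled cells, 1.22, 1.299 and 1.41 TPM in 72 h controls and 0.517, 0.618 and 0.499 TPM in 24 h controls. It was 92.7-fold higher than at 24 h, and the log2 difference of 5.06 from 24 h controls compared with 4.48 from 72 h controls.

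PSCA, a GPI-anchored surface protein of bladder and stomach epithelium, reached 1033, 786 and 851 TPM in oeAGR2-labelled cells, against 62.5, 59.7 and 61.3 TPM in 72 h controls and 71.4, 51.4 and 62.2 TPM in 24 h controls. The control groups overlapped each other and lay well below every oeAGR2-labelled library. The long non-coding RNA LINC00930 stood at 22.5, 25.1 and 24.2 TPM, against 0.247, 0.327 and 0.298 TPM in 72 h controls and 0.267, 0.2099 and 0.432 TPM in 24 h controls. ADIRF, a small adipogenesis factor, had 55.1, 38.2 and 42.2 TPM in oeAGR2-labelled cells, 1.14, 1.26 and 1.13 TPM in 72 h controls and 3.32, 2.25 and 2.63 TPM in 24 h controls. In both genes the oeAGR2-labelled libraries stood apart from all controls.

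FOS, which encodes an AP-1 subunit (ENSG00000170345, chr14:75278826-75283190, plus strand), had 910.2, 1027 and 1007 TPM in oeAGR2-labelled cells, 133, 134 and 135 TPM in 72 h controls and 68.1, 73.3 and 74.999 TPM in 24 h controls. Its relative FOSB had 142, 188 and 182 TPM, against 32.5, 31.5 and 35.3 TPM in 72 h controls and 7.08, 8.18 and 9.07 TPM in 24 h controls. GDF15, a stress-induced hormone of the TGF-beta family, had 19.3, 16.8 and 17.99 TPM in oeAGR2-labelled cells, 1.33, 1.14 and 1.196 TPM in 72 h controls and 0.425, 0.176 and 0.585 TPM in 24 h controls. For all 3 the order was oeAGR2-labelled, then 72 h control, then 24 h control, with no overlap. KL, the FGF co-receptor klotho, rose by 3.58 ± 0.14 on the log2 scale (adjusted p = 4.73e-07, limma), and the small nuclear RNA SCARNA9 by 3.77 ± 0.22 (adjusted p = 3.26e-06). Against 72 h controls they differed by 2.48 and 3.17. IFI6 is described with the interferon genes. HMGN2P4, a pseudogene that can share reads with HMGN2, was as high in 72 h controls (43.4, 34.2 and 45.1 TPM) as in oeAGR2-labelled cells (41.3, 34.5 and 32.6 TPM), against 0.0147, 3.44 and 4.69 TPM at 24 h. It was the member of the 12 whose oeAGR2-labelled libraries were not above all controls.

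The largest falls included a subunit of the NADPH oxidase, a basal keratin and a cancer-testis antigen. CYBA, the p22phox subunit (ENSG00000051523, chr16:88643275-88651083, minus strand), stood at 0.3298, 0.288 and 0.3301 TPM in oeAGR2-labelled cells, against 30.7, 32.02 and 33.4 TPM in 72 h controls and 40.6, 27.3 and 34.9 TPM in 24 h controls. It was 108-fold lower than at 24 h (-4.73 ± 0.12 on the log2 scale, limma adjusted p = 9.63e-08). The AGR2-knockdown libraries at 24 h had 0.326, 0.418 and 0.391 TPM of CYBA, as low as the oeAGR2-labelled ones. Knockdown and oeAGR2-labelled libraries were thus both low, while every control library had at least 27.3 TPM.

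KRT5, the basal-cell keratin (ENSG00000186081, chr12:52514575-52520530, minus strand), had 0.798, 0.611 and 0.989 TPM in oeAGR2-labelled cells, 98.5, 94.5 and 102 TPM in 72 h controls and 42.02, 36.98 and 40.6 TPM in 24 h controls. It moved in opposite directions in the oeAGR2-labelled cells (-4.51 ± 0.09, adjusted p = 3.12e-08, limma) and the 72 h controls (1.28, adjusted p = 1.84e-05), each against 24 h controls. CTAG2, a cancer-testis antigen, had 1.45, 1.72 and 0.8896 TPM in oeAGR2-labelled cells, 83.2, 82.1 and 78.5 TPM in 72 h controls and 53.5, 42.9 and 45.5 TPM in 24 h controls. TRBC2, annotated as a T-cell receptor constant gene, had 4.76, 5.28 and 5.82 TPM in oeAGR2-labelled cells, 168, 164 and 171 TPM in 72 h controls and 95.5, 77.4 and 85.7 TPM in 24 h controls, although PTPRC was near 0 throughout. Both lay below all controls in the oeAGR2-labelled libraries and, like KRT5, highest in the 72 h controls.

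LGALS1, which encodes galectin-1, had 5.18, 3.701 and 3.05 TPM in oeAGR2-labelled cells, 19.4, 19.7 and 18.97 TPM in 72 h controls and 78.7, 53.9 and 65.5 TPM in 24 h controls, so the level was lowest in oeAGR2-labelled cells and highest at 24 h. CDSN, a corneodesmosome protein, averaged 1.71 ± 0.679 TPM, against 9.75 ± 0.946 TPM in 72 h controls and 20.2 ± 1.795 TPM in 24 h controls (SD, n = 3 each). OSCAR, an immunoglobulin-like receptor, averaged 0.7001 ± 0.122 TPM, against 16.9 ± 0.358 TPM in 72 h controls and 12.9 ± 1.18 TPM in 24 h controls. The Alu-derived RNA BCYRN1 fell by 2.99 on the log2 scale (adjusted p = 2.1e-06, limma) and differed by -2.44 from 72 h controls; its repeat content makes read assignment uncertain. ELFN1-AS1 was listed at 0 in all oeAGR2-labelled libraries, against 4.22, 4.72 and 4.53 TPM in 72 h controls and 6.82, 5.11 and 5.39 TPM in 24 h controls. A pair of antisense RNAs rested on uneven controls. RCC2-AS1 had 42.4, 12.6 and 3.31 TPM in 24 h controls and MYADM-AS2 had 12.6, 6.38 and 2.59 TPM, while both were at or near 0 in 72 h controls and in all but the first oeAGR2-labelled library. Of the 24 genes, 21 lay outside all 6 controls, 11 of them rises and 10 falls. Over all genes, 32.1% lay above all controls and 7.73% below them. The 24 were chosen as the largest differences without overlap with 24 h controls, so this count follows largely from the choice. An annotated gene on the opposite strand overlapped 14 of the 24, and likewise 81 of all 174 named genes. Without strand, reads of such a pair cannot be told apart.

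**Figure D2:**
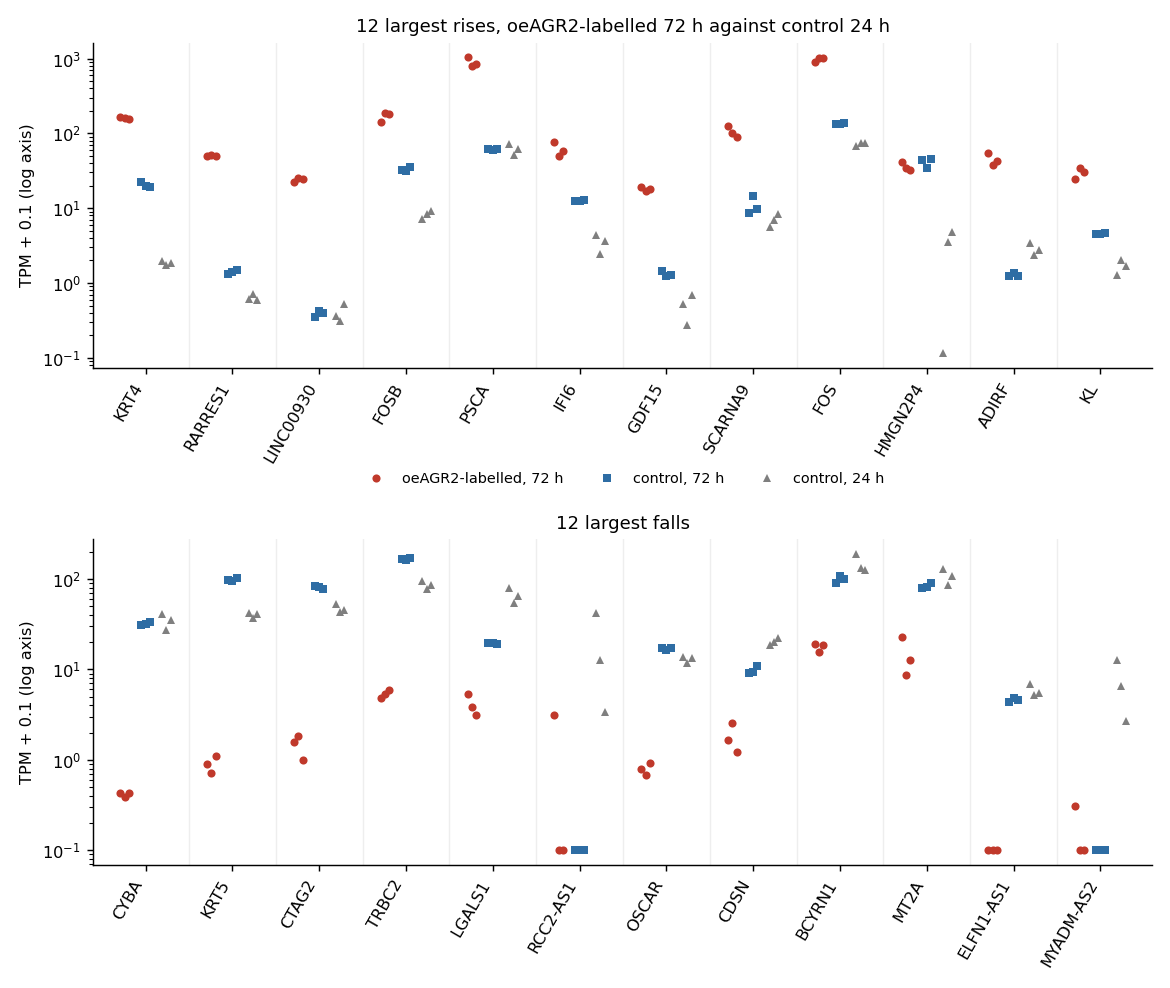
TPM of the 12 largest rises (upper panel) and 12 largest falls (lower panel) of oeAGR2-labelled 72 h cells against 24 h controls, on a log axis after adding 0.1; each point is a library (circles oeAGR2-labelled 72 h, squares control 72 h, triangles control 24 h). The genes were chosen for large differences without overlap of circles and triangles. The circles lie outside all control points in 21 of the 24 genes.

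Luminal and urothelial differentiation genes were mostly higher. Of 33 listed, 19 were tested; 15 were higher and 2 lower as deposited, and 13 higher and 4 lower rescaled, beside 58.9% and 10.8% of all genes, or 30.3% and 29.1% rescaled; these shares are the background for every list that follows. The list was chosen with these data known. Its median was 2.10 on the log2 scale (all genes 0.41), with 0.08 for 72 h against 24 h controls and 2.27 for oeAGR2-labelled cells against 72 h controls. Uroplakin UPK2, a plaque protein of the bladder surface, had 50.8, 44.5 and 49.7 TPM in oeAGR2-labelled cells, 3.77, 3.93 and 4.04 TPM in 72 h controls and 4.55, 3.64 and 4.22 TPM in 24 h controls. HPGD, which inactivates prostaglandin E2, had 11.4, 12.7 and 11.6 TPM, against 0.428, 0.278 and 0.342 TPM in 72 h controls and 0.252, 0.209 and 0.252 TPM in 24 h controls. S100P, a calcium-binding protein of carcinomas, had 467, 296 and 319 TPM in oeAGR2-labelled cells, 14.6, 13.6 and 13.4 TPM in 72 h controls and 65.4, 52.5 and 50.2 TPM in 24 h controls. All oeAGR2-labelled libraries exceeded all controls in these genes, and S100P was lowest in the 72 h controls. The members that fell were AGR2 and LYPD3 under both scalings; rescaled, LCN2 and SLPI fell too.

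Mucins, the clients of AGR2 in gut epithelium, and the enzymes that start and extend O-glycans were mostly higher too: 17 of 19 tested were higher as deposited and 13 rescaled, with 1 and 2 lower. The mucin median was 0.88 from 24 h controls and 0.29 from 72 h controls. MUC1, a membrane mucin, had 189, 171 and 178 TPM in oeAGR2-labelled cells, 48.98, 51.7 and 51.5 TPM in 72 h controls and 32.2, 27.5 and 30.9 TPM in 24 h controls. MUC20 had 259, 308 and 293 TPM, against 53.9, 52.1 and 52.4 TPM in 72 h controls and 46.8, 45.2 and 52.5 TPM in 24 h controls. MUC4, the membrane mucin that binds ERBB2, had 24.2, 56.6 and 47.2 TPM in oeAGR2-labelled cells, 22.4, 26.3 and 27.8 TPM in 72 h controls and 5.42, 6.89 and 7.73 TPM in 24 h controls. MUC1 and MUC20 separated the oeAGR2-labelled libraries from all controls. MUC4 did not: its oeAGR2-labelled replicate 1 lay among the 72 h controls. GALNT5 fell (-0.46 ± 0.09, adjusted p = 0.00164, limma; -0.96 from 72 h controls), and GALNT7 was lower only after rescaling.

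Stratified and basal keratins split. Of 10 tested, 6 rose and 4 fell under both scalings. KRT4, KRT14, KRT16, KRT13, KRT15 and KRT10 were higher, and KRT5, KRT6B, KRT6A and KRT17 lower. KRT14, the usual partner of KRT5, had 17.5, 12.4 and 11.6 TPM in oeAGR2-labelled cells, 1.31, 1.41 and 1.43 TPM in 72 h controls and 1.01, 0.923 and 0.633 TPM in 24 h controls. KRT6B had 1.89, 1.53 and 1.85 TPM, against 7.77, 8.19 and 9.88 TPM in 72 h controls and 16.6, 15.8 and 16.9 TPM in 24 h controls. KRT14 was thus above and KRT5 and KRT6B below all control libraries. KRT14, KRT16 and KRT17, and likewise KRT6A and KRT6B, are near-identical in parts, so the authors' read assignment could shift values between them. Among 6 simple keratins 3 rose and 1 fell as deposited. Rescaled, none rose, and KRT81 and KRT18 fell. KRT19, KRT8 and KRT80, which rose as deposited, then differed by 0.28, -0.13 and -0.06 without passing (limma adjusted p = 0.145, 0.366 and 0.506).

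Genes of epithelial junctions and epithelial identity rose in 37 of 44 tested (27 rescaled) and fell in 3 (6 rescaled), with a median difference of 0.85 from 24 h controls and 0.22 from 72 h controls. KLF5, an epithelial transcription factor, averaged 100.6 ± 14.7 TPM in oeAGR2-labelled cells, 45.4 ± 1.16 TPM in 72 h controls and 26.9 ± 3.77 TPM in 24 h controls (SD, n = 3 each). GRHL3, a grainyhead factor of surface epithelium, averaged 3.67 ± 0.904 TPM, against 0.2698 ± 0.007404 TPM in 72 h controls and 0.477 ± 0.0616 TPM in 24 h controls. The tight junction gene CLDN1 averaged 74.97 ± 6.59 TPM in oeAGR2-labelled cells, 73.3 ± 1.02 TPM in 72 h controls and 20.2 ± 2.599 TPM in 24 h controls. The CLDN1 values of both 72 h groups overlapped, whereas KLF5 and GRHL3 were higher in oeAGR2-labelled cells than in all controls. PKP2, DSP and EPCAM, a desmosomal pair and an adhesion molecule, were lower under both scalings.

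Mesenchymal genes split too: of 13 tested, 6 rose and 5 fell as deposited, and 4 rose and 7 fell rescaled. The mesenchymal median was -0.06 from 24 h controls and -0.94 from 72 h controls. SNAI2, the repressor also called Slug, had 2.68, 3.18 and 2.49 TPM in oeAGR2-labelled cells, 23.6, 23.8 and 21.7 TPM in 72 h controls and 15.3, 19.6 and 17.3 TPM in 24 h controls. TAGLN, an actin-binding protein, had 7.73, 6.69 and 7.18 TPM, against 42.2, 38.7 and 37.6 TPM in 72 h controls and 25.02, 21.6 and 22.7 TPM in 24 h controls. VIM, AXL and FN1 fell with them, by 1.36, 1.16 and 0.48 on the log2 scale, and differed by -3.28, -1.51 and -2.24 from 72 h controls. All 5 lay below every control library in the oeAGR2-labelled cells, and all 5 were higher in 72 h than in 24 h controls. COL6A2, COL6A1, S100A4 and TGM2 rose under both scalings.

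Interferon-stimulated genes were higher with few exceptions. Of 55 listed, 40 were tested; 37 were higher and 1 lower as deposited, and 33 higher and 1 lower rescaled. In 36 of the 40 every oeAGR2-labelled library lay above all 6 controls (32.1% of all genes did); rescaled, 31 did (20.5% of all genes). The median log2 difference was 1.26 against 24 h controls and 0.74 against 72 h controls, with 0.53 for 72 h against 24 h controls. IFI6 (ENSG00000126709, chr1:27666064-27672212, minus strand), a mitochondrial protein induced by type I interferon, had 75.5, 50.3 and 57.6 TPM in oeAGR2-labelled cells, 12.3, 12.5 and 12.7 TPM in 72 h controls and 4.297, 2.33 and 3.54 TPM in 24 h controls. IFITM1, a membrane restriction factor, had 38.2, 30.01 and 33.2 TPM, against 7.17, 6.66 and 6.47 TPM in 72 h controls and 2.94, 2.86 and 3.43 TPM in 24 h controls. IFI44L had 6.78, 8.02 and 7.54 TPM in oeAGR2-labelled cells, 0.841, 0.9202 and 0.853 TPM in 72 h controls and 0.131, 0.1503 and 0.149 TPM in 24 h controls. In each of the 3 the libraries of the groups did not overlap, and 72 h controls lay between the others. STAT2 and IRF9, which are part of the interferon-activated transcription complex, rose by 1.43 and 1.89 on the log2 scale, and differed by 1.20 and 1.35 from 72 h controls. GBP2, a guanylate-binding protein, was the member that fell (-0.71 ± 0.06, adjusted p = 1.33e-05, limma).

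The promoters of these genes are shown because that complex binds a known element in them, the interferon-stimulated response element. Searched for were the letters GAAA, any 2 bases and GAAA again, on either strand (TTTC, 2 bases and TTTC on the other), in RefSeq windows of 300 bases, 250 before and 50 after the gene start, on GRCh38.p14. They occurred in 21 of the 32 tested members with a window (65.6%), in 2.65% of the windows of 8349 tested genes and in 3.65% of all 27305 windows. A match is a description of the letters and not evidence of binding. The 250 bases before the start are printed 5′ to 3′ on the gene's strand for the rule-chosen members with the largest rise and a match, with matches in capitals.
IFI6 (chr1:27672193-27672442, minus strand): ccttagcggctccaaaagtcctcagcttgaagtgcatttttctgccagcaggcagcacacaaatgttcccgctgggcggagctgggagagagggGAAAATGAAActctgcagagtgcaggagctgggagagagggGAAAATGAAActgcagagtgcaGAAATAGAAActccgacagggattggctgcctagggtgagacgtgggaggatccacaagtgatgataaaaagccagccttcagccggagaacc
IFITM1 (chr11:313790-314039, plus strand): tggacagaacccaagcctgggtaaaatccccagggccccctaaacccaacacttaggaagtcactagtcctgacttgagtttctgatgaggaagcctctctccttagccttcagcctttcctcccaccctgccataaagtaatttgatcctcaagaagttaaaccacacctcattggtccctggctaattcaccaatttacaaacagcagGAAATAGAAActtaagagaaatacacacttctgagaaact
IFI44L (chr1:78620198-78620447, plus strand): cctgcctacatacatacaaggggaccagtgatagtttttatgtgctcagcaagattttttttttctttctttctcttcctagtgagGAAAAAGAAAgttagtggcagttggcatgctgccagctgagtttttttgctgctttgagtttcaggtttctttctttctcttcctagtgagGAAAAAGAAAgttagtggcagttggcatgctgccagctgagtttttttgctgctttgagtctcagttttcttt
IFI6 held 3 matches, IFI44L 2 and IFITM1 1 in the stretch printed.

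MHC class I and antigen processing genes, many of which also respond to interferon, rose in 15 of 17 tested (10 rescaled), with a median of 0.82 from 24 h controls and -0.01 from 72 h controls. HLA-B averaged 156 ± 19.4 TPM in oeAGR2-labelled cells, 156 ± 7.75 TPM in 72 h controls and 61.7 ± 3.39 TPM in 24 h controls (SD, n = 3 each). TAPBP, the peptide-loading chaperone tapasin, averaged 62.8 ± 11.9 TPM, against 64.6 ± 1.17 TPM in 72 h controls and 20.2 ± 4.14 TPM in 24 h controls. PSMB10, an immunoproteasome subunit, averaged 101.2 ± 24.1 TPM in oeAGR2-labelled cells, 43.5 ± 1.43 TPM in 72 h controls and 38.1 ± 10.4 TPM in 24 h controls. The 72 h groups were not separated by the test in HLA-B and TAPBP (log2 differences of oeAGR2-labelled cells from 72 h controls -0.01 and -0.06, limma adjusted p = 0.945 and 0.801), whereas PSMB10 was higher in oeAGR2-labelled cells. HLA genes are polymorphic and similar to each other, so their split of reads is uncertain.

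Mitotic genes were lower with few exceptions. Of 62 listed, 53 were tested; 48 were lower and 1 higher as deposited, and 52 lower rescaled. In 47 every oeAGR2-labelled library lay below all 6 controls (7.73% of all genes did); rescaled, 51 did (18.7% of all genes). The median log2 difference was -0.87 against 24 h controls and -0.65 against 72 h controls, with -0.09 for 72 h against 24 h controls. PTTG1, which encodes securin, had 12.5, 8.86 and 11.05 TPM in oeAGR2-labelled cells, 21.6, 21.3 and 22.2 TPM in 72 h controls and 55.9, 52.1 and 50.2 TPM in 24 h controls. CCNB1, the mitotic cyclin, had 15.8, 13.1 and 14.8 TPM, against 29.7, 29.96 and 30.8 TPM in 72 h controls and 44.5, 45.4 and 43.5 TPM in 24 h controls. KIF20A, a kinesin of cytokinesis, had 4.27, 6.04 and 5.64 TPM in oeAGR2-labelled cells, 13.6, 14.2 and 14.8 TPM in 72 h controls and 19.1, 23.6 and 23.8 TPM in 24 h controls. Each showed 3 separate levels, lowest in oeAGR2-labelled cells. BUB3, a checkpoint protein, was the member called higher as deposited (0.24), and it was called lower after rescaling (-0.26). MKI67, the proliferation marker, fell by 1.09 and differed by -1.61 from 72 h controls.

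Genes of DNA replication did not fall as mitotic genes did, although after rescaling more of them were lower than higher. Of 35 tested, 20 were higher and 5 lower as deposited, and 8 higher and 14 lower rescaled; their median difference from 24 h controls was 0.32, below the 0.41 of all genes. The 72 h controls were higher than the 24 h controls in 31 of the 35 (51.6% of all genes; 24 and 26% rescaled), with a median of 0.64, and oeAGR2-labelled cells were lower than 72 h controls in 27 (22.5% of all genes; 28 and 27.7% rescaled), with a median of -0.47. MCM2, a subunit of the replicative helicase, had 8.41, 9.25 and 9.59 TPM in oeAGR2-labelled cells, 14.4, 13.9 and 14.6 TPM in 72 h controls and 4.09, 4.39 and 5.21 TPM in 24 h controls. MCM7 had 38.2, 36.2 and 36.9 TPM, against 38.3, 37.999 and 39.5 TPM in 72 h controls and 22.2, 21.7 and 24.2 TPM in 24 h controls. POLD2, TK1, RRM1, GINS2 and RRM2 were lower under both scalings; without oeAGR2-labelled replicate 3 the count of lower members was 2 and without 24 h control replicate 3 it was 3. Among G1 regulators, 13 of 22 tested were higher and 2 lower (7 and 7 rescaled), shares near those of all genes. The transcription factor E2F1 averaged 8.595 ± 0.211 TPM in oeAGR2-labelled cells, 10.998 ± 0.468 TPM in 72 h controls and 3.31 ± 0.221 TPM in 24 h controls, and the CDK inhibitors CDKN2C and CDKN1A fell by 1.12 and 0.73 (-0.79 and -1.91 from 72 h controls).

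Promoters of mitotic genes carry a cell cycle homology region (CHR), bound by the DREAM and MuvB complexes, and CCAAT boxes bound by NF-Y, so they are shown as well. The letters TTTGAA, which read TTCAAA from the other strand, occurred in 32 of 45 mitotic windows (71.1%), in 8.67% of the windows of tested genes and in 15.4% of all windows. The letters CCAAT, which read ATTGG from the other strand, occurred in 33 of 45 (73.3%), beside 36.9% of tested and 35.7% of all windows, and both in 25 of 45 (55.6%), beside 3.9% and 6.08%. Of 29 replication windows 1 held TTTGAA (3.45%). Capitals mark both motifs in the 250 bases before the start of the pair of mitotic genes with the largest falls that held both.
CCNB2 (chr15:59104896-59105145, plus strand): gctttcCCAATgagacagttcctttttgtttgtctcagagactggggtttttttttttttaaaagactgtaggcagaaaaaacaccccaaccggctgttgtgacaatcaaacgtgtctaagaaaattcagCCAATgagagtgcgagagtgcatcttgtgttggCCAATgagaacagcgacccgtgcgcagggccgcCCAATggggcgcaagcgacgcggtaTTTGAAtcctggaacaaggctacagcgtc
PLK1 (chr16:23678639-23678888, plus strand): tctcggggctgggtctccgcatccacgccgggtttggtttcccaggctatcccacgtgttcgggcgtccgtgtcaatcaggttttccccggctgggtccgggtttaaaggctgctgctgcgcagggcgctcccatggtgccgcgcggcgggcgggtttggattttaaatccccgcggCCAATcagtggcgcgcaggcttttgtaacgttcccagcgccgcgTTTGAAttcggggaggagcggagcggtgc
CCNB2, a B-type cyclin with 4 CCAAT matches and 1 TTTGAA match in this stretch, had 2.05, 1.92 and 2.21 TPM in oeAGR2-labelled cells, 4.57, 4.86 and 4.88 TPM in 72 h controls and 7.84, 7.83 and 8.25 TPM in 24 h controls. PLK1, the mitotic kinase, had 6.28, 7.27 and 6.72 TPM in oeAGR2-labelled cells, 16.1, 17.2 and 17.6 TPM in 72 h controls and 21.3, 19.02 and 23.1 TPM in 24 h controls. Both showed 3 separate levels, lowest in oeAGR2-labelled cells.

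**Figure D3:**
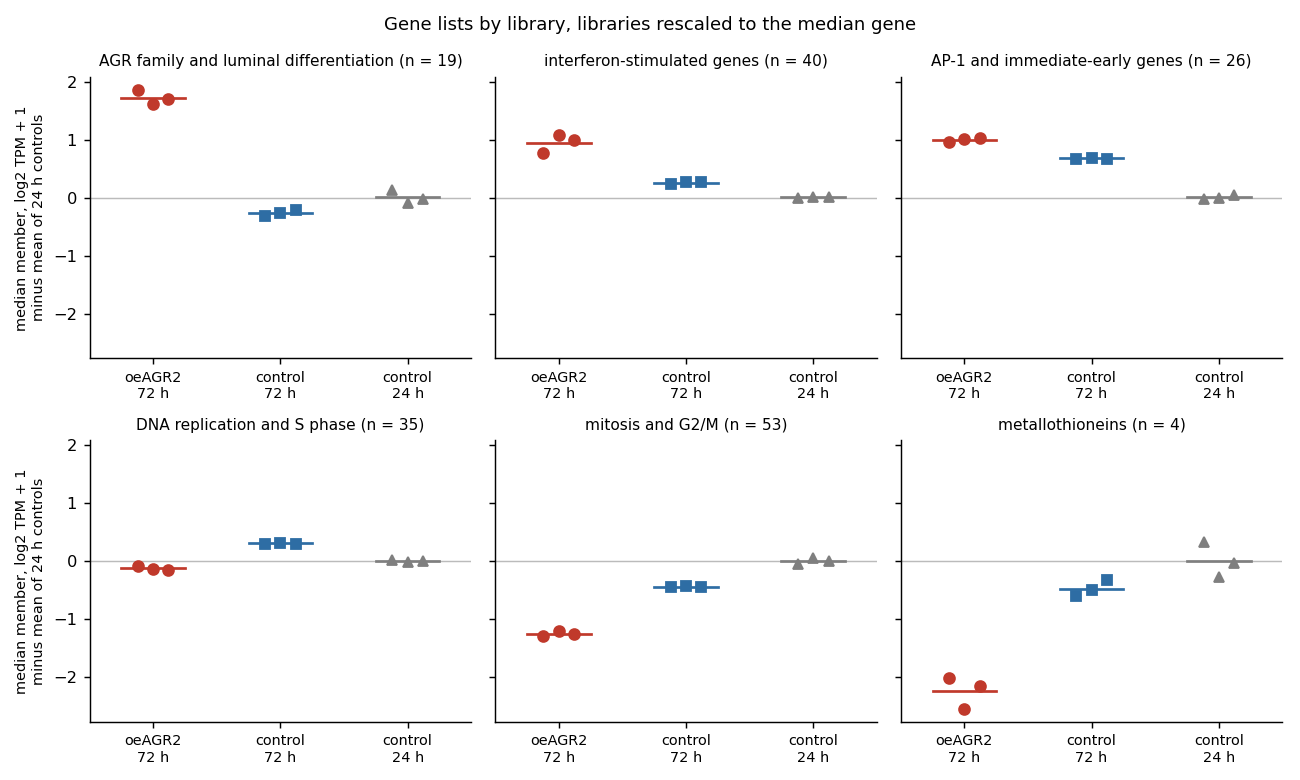
Median over the tested members of 6 gene lists in each library, as the log2(TPM + 1) difference from the mean of the 24 h controls with libraries rescaled to the median gene; points are libraries and bars the mean of 3. Luminal genes lie at 1.61 to 1.86 in oeAGR2-labelled libraries and -0.31 to -0.21 in 72 h controls, and mitotic genes at -1.29 to -1.21 and -0.45 to -0.44.

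AP-1 and immediate-early genes rose in 23 of 26 tested (21 rescaled) and fell in 2 (3 rescaled), with a median log2 difference of 1.44 from 24 h controls. The 72 h controls were also higher than the 24 h controls, with a median of 1.08, and oeAGR2-labelled cells exceeded 72 h controls by 0.35. EGR1, a serum-response transcription factor, had 263, 317 and 323 TPM in oeAGR2-labelled cells, 79.7, 82.8 and 85.4 TPM in 72 h controls and 29.5, 34.04 and 38.6 TPM in 24 h controls. ZFP36, which destabilises inflammatory mRNAs, had 218, 266 and 258 TPM, against 76.1, 75.4 and 77.8 TPM in 72 h controls and 33.7, 34.8 and 39.8 TPM in 24 h controls. Both had 3 separate levels, highest in oeAGR2-labelled cells. The members that fell were IER3 and FOSL1 under both scalings and CCN1 after rescaling, so FOS and FOSB rose while their relative FOSL1 fell.

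ERK feedback and output genes rose in 15 of 22 tested and fell in 5 (8 and 8 rescaled), beside 58.9% and 10.8% of all genes (30.3% and 29.1% rescaled). The ERK median was 0.49 from 24 h controls and -0.57 from 72 h controls. The phosphatase gene DUSP5 had 28.6, 27.98 and 29.1 TPM in oeAGR2-labelled cells, 10.4, 10.1 and 10.1 TPM in 72 h controls and 2.71, 2.999 and 3.29 TPM in 24 h controls. DUSP6, the ERK phosphatase, averaged 3.39 ± 0.6197 TPM in oeAGR2-labelled cells, 0.993 ± 0.3697 TPM in 72 h controls and 0.937 ± 0.211 TPM in 24 h controls (SD, n = 3 each). Both were highest in oeAGR2-labelled cells. IL11, AREG, IER3, PHLDA1 and FOSL1 were the 5 that fell.

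Within the EGFR family, receptors ERBB2 and ERBB3 rose and ligands AREG and EPGN fell. ERBB2 had 38.01, 37.7 and 36.5 TPM in oeAGR2-labelled cells, 16.2, 15.97 and 16.4 TPM in 72 h controls and 10.96, 10.7 and 11.9 TPM in 24 h controls, and ERBB3 rose by 0.90 on the log2 scale (adjusted p = 1.87e-05, limma; 0.65 from 72 h controls). AREG, an EGFR ligand, had 0.482, 0.614 and 0.485 TPM in oeAGR2-labelled cells, 4.78, 4.95 and 5.03 TPM in 72 h controls and 1.84, 2.14 and 1.65 TPM in 24 h controls. The ligand EPGN had 0.119, 0.271 and 0.221 TPM, against 2.89, 3.35 and 3.15 TPM in 72 h controls and 1.87, 2.66 and 2.68 TPM in 24 h controls. Both ligands were below all controls in oeAGR2-labelled cells, and AREG was higher in 72 h than in 24 h controls. EGFR itself differed from 24 h controls by 0.01 ± 0.16 as deposited (adjusted p = 0.967) and by -0.47 rescaled (adjusted p = 0.0219). Of the 9 tested, 5 rose and 2 fell as deposited and 4 and 4 rescaled; the median was 0.53 from 24 h controls and -0.45 from 72 h controls.

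Among other receptor kinases and IGF-binding proteins 13 of 19 rose and 2 fell (10 and 5 rescaled). The receptor median was 0.62 from 24 h controls and -0.32 from 72 h controls. IGFBP5 had 14.3, 22.9 and 20.5 TPM in oeAGR2-labelled cells, 43.5, 41.7 and 41.9 TPM in 72 h controls and 1.205, 1.65 and 1.79 TPM in 24 h controls, so the oeAGR2-labelled cells lay between the controls. AXL, a receptor linked with EGFR inhibitor tolerance, had 7.83, 9.01 and 8.97 TPM in oeAGR2-labelled cells, 26.3, 25.4 and 26.9 TPM in 72 h controls and 18.7, 20.8 and 21.8 TPM in 24 h controls. It was the lowest in oeAGR2-labelled cells without overlap. IGFBP2 fell too, by 1.06, with a difference of -0.78 from 72 h controls.

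TGF-beta and activin genes rose in 17 of 33 and fell in 7 (11 and 12 rescaled), beside 58.9% and 10.8% of all genes (30.3% and 29.1% rescaled), so the rescaled shares were near those of all genes. The TGF-beta median was 0.32 from 24 h controls and -0.18 from 72 h controls. TGFBI, INHBA, PMEPA1, IL11, LTBP2 and TGFB2 were among those that fell. TGFBI, a matrix protein induced by TGF-beta, had 3.78, 4.05 and 3.82 TPM in oeAGR2-labelled cells, against 38.2, 35.7 and 36.6 TPM in 72 h controls and 25.9, 26.96 and 28.4 TPM in 24 h controls. ID1, a target of BMP signalling, had 31.2, 22.6 and 24.9 TPM in oeAGR2-labelled cells, 3.77, 3.39 and 3.38 TPM in 72 h controls and 7.68, 5.61 and 6.68 TPM in 24 h controls. TGFBI was lowest in oeAGR2-labelled cells and highest in 72 h controls; ID1 showed the reverse order.

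In the plasminogen system 7 of 15 rose and 7 fell (5 and 9 rescaled), with a median of 0.05 from 24 h controls and -0.07 from 72 h controls. PLAT, the tissue plasminogen activator, had 13.001, 14.6 and 14.5 TPM in oeAGR2-labelled cells, 5.06, 5.12 and 5.16 TPM in 72 h controls and 1.05, 0.965 and 1.04 TPM in 24 h controls. TIMP3, a metalloproteinase inhibitor, had 112, 124 and 121 TPM, against 36.3, 34.9 and 35.1 TPM in 72 h controls and 11.3, 12.1 and 12.4 TPM in 24 h controls. PLAT and TIMP3 were above all controls, while SERPINE2, PLAU, S100A10 and ANXA2 were lower under both scalings. YAP/TEAD targets rose in 11 of 24 and fell in 6 (7 and 11 rescaled); all 24 were higher in 72 h than in 24 h controls (51.6% of all genes; 16 and 26% rescaled), and 17 were lower in oeAGR2-labelled cells than in 72 h controls (22.5% of all genes; 17 and 27.7% rescaled). Integrins and laminin-332 subunits rose in 10 of 17 and fell in 2 (5 and 5 rescaled; 4 fell without oeAGR2-labelled replicate 2). The integrin median was 0.45 from 24 h controls and -0.47 from 72 h controls.

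**Figure D4:**
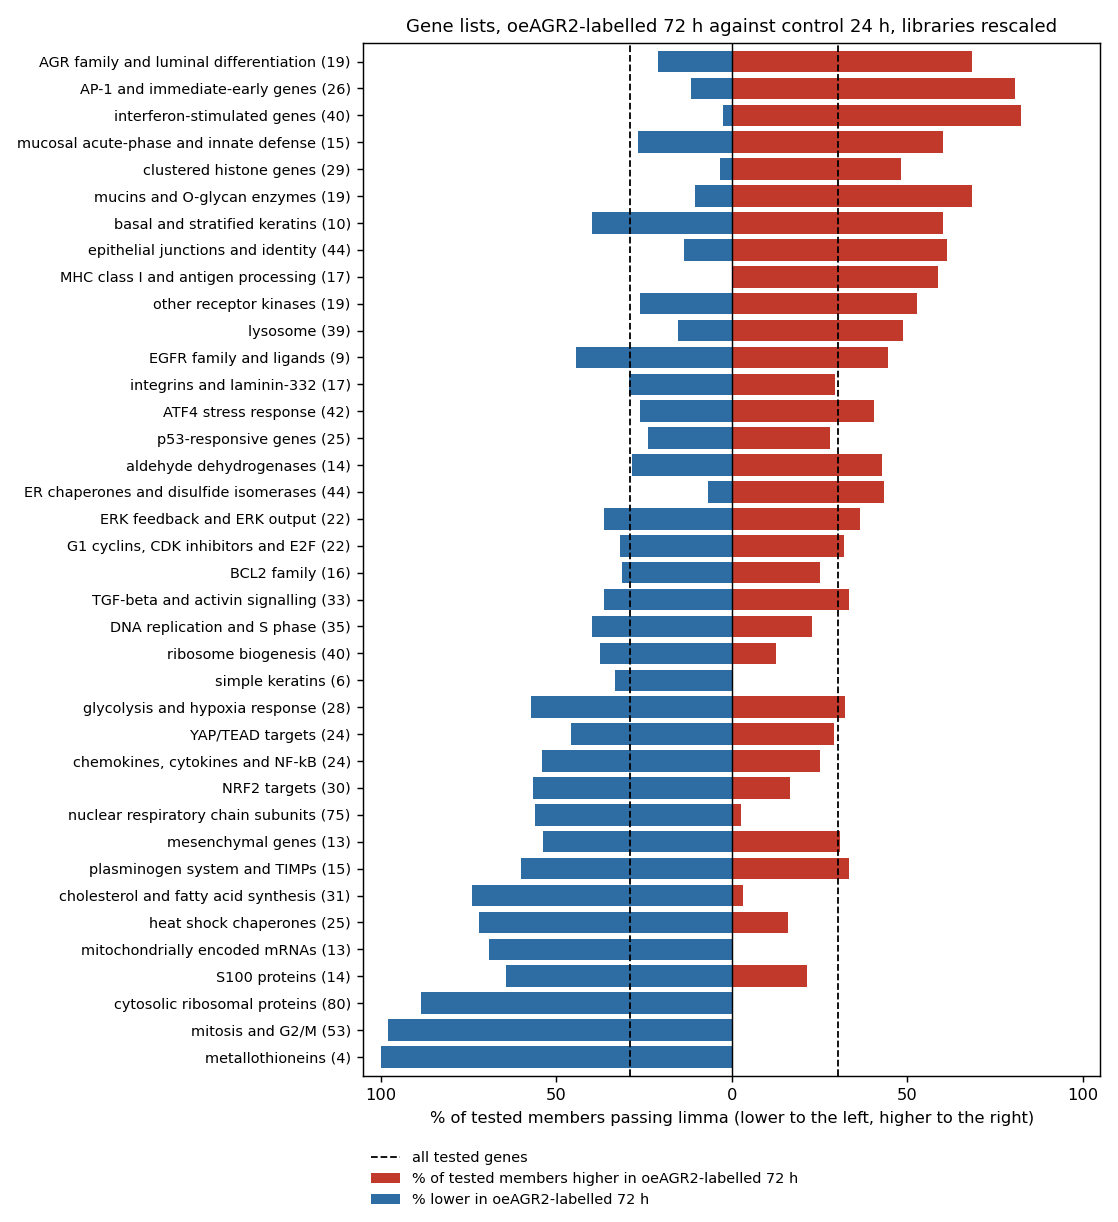
Share of tested members of each gene list that were higher (right) or lower (left) in oeAGR2-labelled 72 h cells than in 24 h controls by limma after rescaling, with the number tested in brackets; dashed lines mark all tested genes, 30.3% higher and 29.1% lower. Interferon-stimulated genes reach 33 of 40 higher, and mitotic genes 52 of 53 lower.

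Endoplasmic reticulum chaperones and disulfide isomerases, the class AGR2 belongs to, rose in 40 of 44 as deposited, and in 19 with 3 lower rescaled. HSPA5, the chaperone BiP, had 1000.2, 936 and 918 TPM in oeAGR2-labelled cells, 843, 784 and 775 TPM in 72 h controls and 423, 472 and 450.2 TPM in 24 h controls. P4HB, a protein disulfide isomerase, had 259.96, 256 and 253 TPM, against 192, 186 and 189 TPM in 72 h controls and 104.5, 93.4 and 109.9 TPM in 24 h controls. Much of the difference was already present in 72 h controls: 38 of the 44 were higher in 72 h than in 24 h controls (51.6% of all genes; 30 and 26% rescaled), and the median difference of oeAGR2-labelled cells from 72 h controls was 0.03. In the ATF4 stress response 32 of 42 rose and 3 fell (17 and 11 rescaled), with a median of 0.57 from 24 h controls and -0.27 from 72 h controls. NUPR1, a stress-induced chromatin protein, had 9.01, 6.05 and 8.22 TPM in oeAGR2-labelled cells, 2.25, 2.42 and 2.55 TPM in 72 h controls and 0.854, 0.626 and 1.24 TPM in 24 h controls. SLC7A5 and SLC3A2, which together form an amino acid transporter, fell by 1.23 and 0.85, and DDIT4 by 0.35. Against 72 h controls these 3 differed by -2.59, -1.55 and -0.56.

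Lysosomal genes rose in 33 of 39 and fell in 1 (19 and 6 rescaled). ASAH1, acid ceramidase, had 92.8, 113 and 107 TPM in oeAGR2-labelled cells, 35.7, 34.5 and 33.7 TPM in 72 h controls and 19.2, 22.3 and 22.1 TPM in 24 h controls. GAA, acid alpha-glucosidase, had 80.2, 82.4 and 81.6 TPM, against 40.7, 42.2 and 43.2 TPM in 72 h controls and 18.3, 16.1 and 20.4 TPM in 24 h controls. SMPD1, acid sphingomyelinase, fell by 0.38 (-1.31 from 72 h controls). For the list as a whole, oeAGR2-labelled cells had a median difference of 0.00 from 72 h controls, although ASAH1 and GAA rose over them.

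Cholesterol and fatty acid synthesis depended on the scaling: 6 of 31 rose and 8 fell as deposited, 1 rose and 23 fell rescaled. The sterol and lipid median was 0.01 from 24 h controls and -0.47 from 72 h controls. INSIG1, a sterol sensor that is itself a sterol-responsive gene, had 1.67, 1.64 and 1.15 TPM in oeAGR2-labelled cells, 8.32, 7.67 and 7.72 TPM in 72 h controls and 5.23, 5.302 and 5.896 TPM in 24 h controls. SCD, the stearoyl-CoA desaturase, had 11.2, 14.3 and 12.9 TPM, against 38.04, 35.1 and 35.7 TPM in 72 h controls and 29.4, 36.3 and 36.2 TPM in 24 h controls. Both lay below all controls. With the replicates numbered 1 of both groups left out, 13 members fell.

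Metallothioneins, which bind zinc and copper, fell in all 4 tested members under both scalings (MT2A, MT1A, MT1F and MT1X). MT2A had 22.8, 8.53 and 12.7 TPM in oeAGR2-labelled cells, 79.4, 81.7 and 91.4 TPM in 72 h controls and 129.99, 86.8 and 108 TPM in 24 h controls, with no overlap. MT1X, the smallest fall (-0.43 ± 0.16, adjusted p = 0.0391, limma), missed the threshold when any 24 h control, or replicate 2 or 3 of either 72 h group, was left out (adjusted p between 0.0517 and 0.108). These genes are near-identical in parts. Cytosolic ribosomal protein genes fell in 31 of 80 and rose in 3 as deposited, and fell in 71 rescaled. More of them fell when oeAGR2-labelled replicate 1 was left out: 58 fell and 1 rose as deposited, and 78 fell rescaled. With replicate numbers as a block 43 fell and 5 rose. The ribosomal protein median was -0.28 from 24 h controls and -0.04 from 72 h controls. RPS3 averaged 172 ± 30.6 TPM in oeAGR2-labelled cells, 268 ± 6.96 TPM in 72 h controls and 314 ± 31.6 TPM in 24 h controls (SD, n = 3 each). These genes have many processed pseudogenes, and pseudogenes held 20.9% of TPM in oeAGR2-labelled cells, 24.2% in 72 h controls and 25.9% in 24 h controls; their part in the result was not tested.

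Nuclear-encoded respiratory chain subunits rose in 18 of 75 and fell in 9 (2 and 42 rescaled), and the number that fell as deposited ran from 5 to 21 when single libraries were left out, 21 being without oeAGR2-labelled replicate 1. Their median was 0.11 from 24 h controls and 0.15 from 72 h controls. COX8A, a cytochrome oxidase subunit, averaged 98.4 ± 12.4 TPM in oeAGR2-labelled cells, 155 ± 0.222 TPM in 72 h controls and 180.2 ± 26.6 TPM in 24 h controls. In the glycolysis and hypoxia list 13 of 28 rose and 6 fell (9 and 16 rescaled), with a median of 0.14 from 24 h controls and -0.18 from 72 h controls. ALDOC, an aldolase, averaged 1.402 ± 0.121 TPM, against 14.6 ± 0.7797 TPM in 72 h controls and 10.6 ± 0.698 TPM in 24 h controls. VEGFA, the angiogenic factor, averaged 36.3 ± 3.64 TPM in oeAGR2-labelled cells, 18.7 ± 0.626 TPM in 72 h controls and 8.26 ± 1.18 TPM in 24 h controls. ALDOC was lowest and VEGFA highest in oeAGR2-labelled cells, without overlap. Heat shock chaperones rose in 7 of 25 and fell in 5 (4 and 18 rescaled; 8 fell without oeAGR2-labelled replicate 1), with the near-identical inducible genes HSPA1A and HSPA1B among those that rose, by 1.30 and 1.46 (0.65 and 0.79 from 72 h controls).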

How the data were processed

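RNA was extracted with NucleoZOL and made into Illumina libraries, per the labels' protocols. Reads were aligned with STAR 2.7.8a to hg38/GRCh38, per the submitters' processing notes; the sources used here do not name the quantifier, the annotation or the strandedness. Deposited by the authors were TPM for 30225 genes in 12 libraries, 21485 of them with a symbol; each library sums to 1000000 TPM, which keeps no depth, so no counting interval can be given.

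Samples were grouped by their labels. Genes with at least 1 TPM in 3 of the 6 compared libraries were tested on log2(TPM + 1), where a difference understates the change of low genes, with limma 3.58.1 in R 4.3.3 (empirical Bayes with a mean trend, 3 group means over 9 libraries, two-sided, Benjamini-Hochberg over 14019 genes, threshold 0.05). "Rescaled" values were divided by each library's median ratio to the geometric mean, 1.13 to 1.17 for oeAGR2-labelled, 1.07 to 1.10 for 72 h control and 0.769 to 0.834 for 24 h control libraries. The fit was also run on simulated data with independent noise and no shift of the median gene. That run does not cover the shift or the shared deviations of same-numbered libraries seen here. Fold ratios are ratios of mean TPM.

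The members, the 42 lists, the naming rule and the alternatives were chosen with earlier results of these data known. Genes named are AGR2; the 12 top rises and 12 top falls passing under both scalings with a mean of at least 5 TPM and no overlap; up to 4 passing members per list with the largest difference, and all members behind a count of 5 or fewer; 8 held genes each way, with a mean of at least 10 TPM; and the 8 farthest above and the 8 farthest below both control groups. Other list members were named after their values were seen, and a few that the rule named are not reported here. Replicate numbers are shared between the groups. Deviations from the group means correlated at 0.46, 0.235 and 0.151 between same-numbered oeAGR2-labelled and 24 h control libraries and at -0.366 to 0.174 between different-numbered ones, so a fit with that number as a block was run. Motifs were searched in RefSeq windows matched by symbol. The check on gene-strand overlap used the deposited coordinates.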

Additional observations from a re-analysis of the deposited data

How the results depend on the processing

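Counts against 24 h controls depended on the scaling, the pseudocount and the filter on low values. Rescaling to the median ratio gave 4246 genes higher and 4077 lower (735 and 874 by 2-fold or more, median 0.0008), quantile normalisation 4259 and 4023 (772 and 785, median 0.0071), and protein-coding nuclear genes alone 5034 higher and 2404 lower (1082 higher by 2-fold or more, median 0.20). A pair of rescaled fits were added after seeing the data: without oeAGR2-labelled replicate 1 they gave 4691 and 4381 (849 and 1099, median 0.0118), and with the 6 compared libraries alone 3582 and 3582 (685 and 855, median -0.0059). A pseudocount of 0.1 gave 3228 genes higher by 2-fold or more, 3082 inside 1.5-fold and a median of 0.51. A pseudocount of 5 gave 630 higher and 120 lower by 2-fold or more, 9063 inside 1.5-fold and a median of 0.21. Testing every gene above 0 TPM in 3 libraries, which adds low genes, gave 2527 lower, 17030 inside 1.5-fold, 9521 outside all controls and a median of 0.12. A minimum of 5 TPM, which tests fewer genes, gave 4411 higher, 932 lower, 1265 higher by 2-fold or more, 2257 inside 1.5-fold and 3070 outside all controls; 1 TPM in all 6 libraries gave a median of 0.37. Leaving out single libraries gave 7619 to 8390 genes higher, 1256 to 1845 lower, 1859 to 2269 higher and 276 to 420 lower by 2-fold or more, 3699 to 4329 inside 1.5-fold, 5658 to 7169 outside all controls, a median of 0.38 to 0.42, and an AGR2 difference of -1.49 to -1.41. With replicate numbers as a block over the 9 libraries, 8447 genes were higher and 1608 lower. A block fit over the 6 compared libraries alone, also added after seeing the data, gave 8398 and 1585. The block moved TNNI2 and SETD6, and over the 6 libraries STC2 and UPK3BL1 too, past the threshold. It changed the call of no other gene that the naming rule chose. The 24 largest changes kept direction and threshold in 627 of the 627 refits of a gene that gave a value. These 24 were chosen as the largest differences passing under both scalings without overlap, so that result follows largely from the choice. Of the other named genes that passed as deposited, some reversed direction when libraries were rescaled or quantile normalised. They were MCAM (-0.18, -0.0928, -0.11 and -0.19), CSF1 (-0.0275, -0.0414, -0.0181 and -0.0344), VGLL1 (-0.16, -0.0094, -0.17 and -0.16), KRT80 (-0.0603 and -0.0684) and KRT8 (-0.13, -0.24 and -0.14), all small differences. Held genes that did not pass as deposited but also changed sign when rescaled were STC2 (0.23 to -0.23), RN7SL2 (0.07 to -0.44), CORO6 (0.13 to -0.36), TNNI2 (0.26 to -0.23), SETD6 (0.28 to -0.20) and UPK3BL1 (0.19 to -0.32). Of these, STC2, RN7SL2 and CORO6 then passed as lower. The cause was not tested. BUB3, named for its list, was called in opposite directions as deposited and rescaled. Depth is unknown for these TPM, so changes of genes near 1 TPM carry the least weight.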

Other observations

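Counts for further lists read against 58.9% of all genes higher and 10.8% lower than in 24 h controls as deposited, and 30.3% and 29.1% rescaled. Clustered histone genes, whose transcripts lack a poly(A) tail, rose in 22 of 29 tested (14 higher and 1 lower rescaled). Their medians were 1.06 from 24 h controls and 0.81 from 72 h controls. In 21 every oeAGR2-labelled library lay above all controls (32.1% of all genes did), and rescaled in 11 (20.5% of all genes). H4C8 had 12.98, 12.7 and 13.6 TPM in oeAGR2-labelled cells, 6.26, 7.204 and 5.94 TPM in 72 h controls and 2.77, 2.83 and 2.65 TPM in 24 h controls, and these genes share near-identical coding sequence. Of 14 tested in the S100 list 4 rose and 6 fell (3 and 9 rescaled): S100P, S100A4 and S100A9 rose, while S100A2 had 0.7302, 0.434 and 0.516 TPM in oeAGR2-labelled cells, 2.86, 2.99 and 2.95 TPM in 72 h controls and 8.06, 5.15 and 6.28 TPM in 24 h controls. Mucosal defense genes rose in 10 of 15 and fell in 2 (9 and 4 rescaled). BPIFB1, an airway secretory protein, had 4.55, 4.96 and 4.89 TPM in oeAGR2-labelled cells, 0.0547, 0.0781 and 0.05499 TPM in 72 h controls and was listed at 0 in all 24 h controls. CFD, complement factor D, had 136, 89.3 and 103 TPM, against 6.51, 6.296 and 6.97 TPM in 72 h controls and 9.799, 6.49 and 8.605 TPM in 24 h controls.

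Cytokine and NF-kB genes rose in 12 of 24 and fell in 6 (6 and 13 rescaled; medians 0.18 from 24 h controls and -0.52 from 72 h controls). IL32 had 1.35, 0.964 and 0.915 TPM in oeAGR2-labelled cells, 14.6, 15.04 and 16.1 TPM in 72 h controls and 12.3, 8.57 and 10.9 TPM in 24 h controls, and IL11, IL18, CXCL8, IL6 and TNFAIP3 fell with it. ICAM1, an adhesion molecule, had 93.3, 107 and 105.4 TPM in oeAGR2-labelled cells, 109, 111 and 112 TPM in 72 h controls and 24.998, 25.6 and 28.8 TPM in 24 h controls. NRF2 targets rose in 15 of 30 and fell in 7 (5 and 17 rescaled); the ferritin gene FTH1 fell by 1.09 and the transporter gene ABCC3 rose by 1.55 (-1.16 and 1.24 from 72 h controls). Aldehyde dehydrogenases rose in 11 of 14 and fell in 1 (6 and 4 rescaled). The p53-responsive genes rose in 19 of 25 with 3 lower (7 and 6 rescaled), and BCL2 family genes in 9 of 16 with 1 lower (4 and 5 rescaled). After rescaling, the p53 and BCL2 shares were near those of all genes. BTG2, an antiproliferative gene, averaged 27.6 ± 1.94 TPM in oeAGR2-labelled cells, 8.87 ± 0.499 TPM in 72 h controls and 3.47 ± 0.5499 TPM in 24 h controls (SD, n = 3 each).

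Ribosome biogenesis genes rose in 27 of 40 and fell in 3 (5 and 15 rescaled; 5 fell without oeAGR2-labelled replicate 1). Of 13 mitochondrially encoded mRNAs 1 rose, MT-CO1, and 4 fell as deposited, and 4 rose without oeAGR2-labelled replicate 1. Rescaled, none rose and 9 fell, and MT-CO1 differed by 0.09 (limma adjusted p = 0.584). NKX2-1, the lung lineage factor, had 5.86, 6.002 and 7.73 TPM in oeAGR2-labelled cells, 1.5001, 1.48 and 0.956 TPM in 72 h controls and 1.02, 0.948 and 1.18 TPM in 24 h controls. FOXJ1, a factor of ciliated cells, went the other way, with 2.98, 3.49 and 2.89 TPM in oeAGR2-labelled cells, 5.03, 4.68 and 4.22 TPM in 72 h controls and 6.399, 5.62 and 6.52 TPM in 24 h controls. Both were chosen after their values were seen; of 3 lung identity genes tested 2 were higher and 1 lower (1 and 1 rescaled). Lung identity genes summed to 18.6 to 20.3 TPM in oeAGR2-labelled cells, 10.5 to 12.3 TPM in 72 h controls and 14.1 to 14.7 TPM in 24 h controls. Of 10 neuroendocrine markers 3 reached 1 TPM in any library, and the list summed to 8.95 to 10.1 TPM in oeAGR2-labelled cells, 15.97 to 17.3 TPM in 72 h controls and 9.26 to 10.4 TPM in 24 h controls.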
